A study of Arabidopsis thaliana with 2 samples.

Results

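TIR-type NLR genes of Arabidopsis thaliana, 49 loci in all, were followed in MNase-seq profiles of leaf chromatin from the chr5 mutant and the wild type. In this assay micrococcal nuclease digests exposed DNA, and the DNA that survives, mostly wrapped around nucleosomes, is sequenced. The members came from a list of TIR-NLR loci that leaves out the SNC1/RPP5 cluster. The rule of the list uses no measured value, but it was drawn up with earlier results of these data known. All 49 were matched by locus tag, and their gene midpoints fell into 42 of the 11916 nuclear bins of 10 kb. The 2 genotypes, chr5 and wild type, had 1 library each, both from untreated plants grown on plates at 22 °C. The labels give neither the chr5 allele, nor the accession of the wild type, nor the number of plants pooled. CHR5 encodes a CHD1-like chromatin remodelling ATPase of the SNF2 family, and the question put to these genes is whether their protected DNA differs when it is mutated. The gene table gives no protein class, so membership of the family rests on the list. Of the 49 loci, 11 carry a gene name in that table and 38 a locus tag only.

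NLR proteins are receptors inside the plant cell that detect effectors delivered by pathogens, either directly or through changes in a host protein that the receptor guards. They hold a nucleotide-binding domain and leucine-rich repeats, and the TIR type has an N-terminal TIR domain. TIR domains act as enzymes that cleave NAD+, and the small molecules they make are sensed by EDS1 in complex with PAD4 or SAG101, which then engage the helper NLRs of the ADR1 and NRG1 families. The genes arose by repeated duplication, so many stand in clusters of related copies, and unneeded activity of some of them stunts growth.

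The deposited tables hold 102961878 counts for chr5 and 99909809 for the wild type, of which 102412872 and 99392770 lie on chromosomes 1 to 5. Counts were scaled to these nuclear totals, and the median analysed bin held 8296 counts in chr5 and 7978 in the wild type. Folds are chr5 over wild type, with exact 95% intervals that cover counting error only. As there was a lone library of each genotype, differences could not be set against replicate error, and none was tested. A bin holds more than the gene it was taken for. The members filled between 15.3% and 87.2% of their bin, with a median of 44.5%, and 25 of the 49 genes reach into a neighbouring bin.

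As a share of the nuclear counts, the TIR-NLR bins carried about as much protected DNA in chr5 as in the wild type. These are sums over 10-kb bins, so the position or spacing of nucleosomes within a bin cannot be seen. Neither can a change common to the whole genome, because counts were scaled to each library's own total. Together the 42 bins held 361397 counts in chr5 and 346788 in the wild type, or 0.353% of the nuclear counts in chr5 and 0.349% in the wild type, a fold of 1.011 (1.007 to 1.016). The median log2 ratio of the 42 bins was 0.016, against 0.015 over all 11735 analysed bins, and it lay 0.0016 above that genome median. With the median arm bin set to 0, a background chosen after the data were seen, it was -0.0048. Individual bins ran from -0.079 to 0.11. Of the 42 bins, 20 were below the genome median ratio, which cuts off 50% of all analysed bins by construction. Below 0 were 16 of the 42, against 38.6% of all analysed bins. These counts sit near the background and show no common direction of the family.

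No TIR-NLR bin passed a 1.1-fold difference in either direction. Over all analysed bins 0.81% were higher in chr5 by more than 1.1-fold and 2.65% were lower, so a count of 0 among 42 bins is not far from that background. A difference of 25%, taken as the same fold either way, was passed by 0 of the 42, against 0.017% of all analysed bins higher in chr5 and 0.179% lower. All 42 lay within the central 95% of analysed bins, which spans folds from 0.907 to 1.079. The SD of the log2 ratio over the 42 bins was 0.048, against 0.023 from counting alone and 0.050 over all chromosome arm bins. By SD the TIR-NLR bins thus varied about as much as arm bins do, and by more than counting error. The arm SD includes extreme bins, with log2 ratios from -0.417 to 0.577. By the median absolute distance from the genome median ratio, the TIR-NLR bins varied more than arm bins, at 0.038 against 0.030. No bin lay in a pericentromere, taken as 2 Mb either side of approximate centromere positions. The nearest gene, AT3G44400, was 2.05 Mb from that of chromosome 3.

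**Figure D1:**
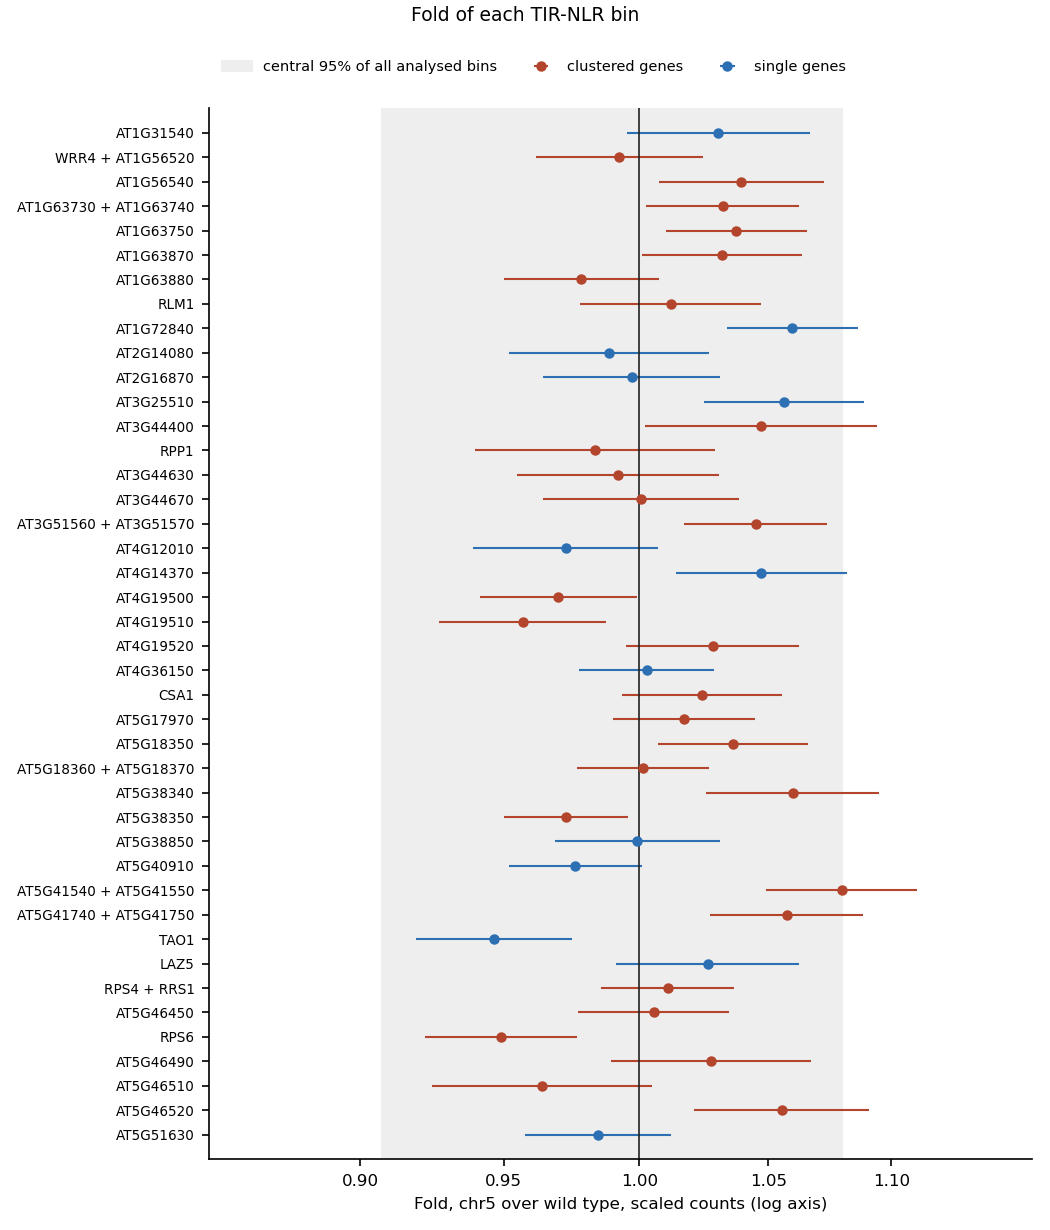
Fold of chr5 over wild type in each of the 42 bins that hold TIR-NLR genes, in genome order from the top, on a log axis, with exact 95% intervals of counting error. Points of clustered and single genes lie on both sides of 1, from 0.947 at TAO1 to 1.079 at AT5G41540 and AT5G41550, all inside the shaded central 95% of all analysed bins.

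The best known pair of the family, RPS4 and RRS1, shared 1 bin that had a high count in both genotypes. RPS4 and RRS1 are neighbours whose proteins work as a paired receptor for bacterial effectors, and RRS1 carries a WRKY domain that serves as bait. Their bin (chromosome 5, 18320001 to 18330000) held 12445 counts in chr5 and 11949 in the wild type, a fold of 1.011 (0.986 to 1.037). That is 121.5 per 1000000 nuclear counts in chr5 and 120.2 in the wild type, the fifth highest wild-type count among the 42 bins. The interval of the fold includes 1.

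Further members, from resistance genes to 1 without a name, gave folds on both sides of 1 with intervals that included 1. WRR4, which gives resistance to white rust, shares its bin with AT1G56520; it held 7908 counts in chr5 and 7733 in the wild type, at 0.992-fold (0.962 to 1.02). RLM1, for resistance to the blackleg fungus, had 6739 counts in chr5 and 6463 in the wild type, at 1.012-fold (0.978 to 1.05). LAZ5, first found through a cell death mutant, had 6711 counts in chr5 and 6347 in the wild type, at 1.026-fold (0.991 to 1.06). The intervals of these 3 bins include 1. CSA1, a TIR-NLR named for a shade-avoidance phenotype, was similar, with 8615 counts in chr5 and 8165 in the wild type, a fold of 1.024 (0.993 to 1.06). AT4G12010, a single gene with no name in the table, had 6345 counts in chr5 and 6331 in the wild type, a fold of 0.973 (0.939 to 1.007).

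The 4 lowest ratios belonged to TAO1, RPS6, AT4G19510 and AT5G46510. TAO1, which contributes to the response to the bacterial effector AvrB, is a single gene and had the lowest fold of all 42 bins. Its bin (chromosome 5, 17930001 to 17940000) held 8795 counts in chr5 and 9018 in the wild type, a fold of 0.947 (0.919 to 0.975). RPS6, needed for resistance to bacteria that deliver the effector HopA1, followed with 9305 counts in chr5 and 9515 in the wild type, a fold of 0.949 (0.922 to 0.977). Next were AT4G19510, with 7721 counts in chr5 and 7831 in the wild type at 0.957-fold (0.927 to 0.988), and AT5G46510, with 4485 and 4516 at 0.964-fold (0.925 to 1.005). In these 4 bins even the unscaled count was lower in chr5, although its library was the larger. Among the 42 bins only AT4G19500 joined them, with 8849 counts in chr5 and 8855 in the wild type, at 0.970-fold (0.942 to 0.999).

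The highest ratios were found in 1 cluster of chromosome 5 and in 2 further bins. AT5G41540 and AT5G41550 share a bin (chromosome 5, 16610001 to 16620000) with 9960 counts in chr5 and 8955 in the wild type, a fold of 1.079 (1.049 to 1.11). AT5G41740 and AT5G41750, about 80 kb away in the same cluster, share a bin (16690001 to 16700000) with 9674 counts in chr5 and 8880 in the wild type, a fold of 1.057 (1.027 to 1.09). Summed over its 2 bins this was the cluster with the highest fold, at 1.068 (1.047 to 1.09). AT5G38340 had 7571 counts in chr5 and 6934 in the wild type, at 1.060-fold (1.026 to 1.09). The single gene AT1G72840 had 13132 counts in chr5 and 12029 in the wild type, at 1.060-fold (1.034 to 1.09).

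**Figure D2:**
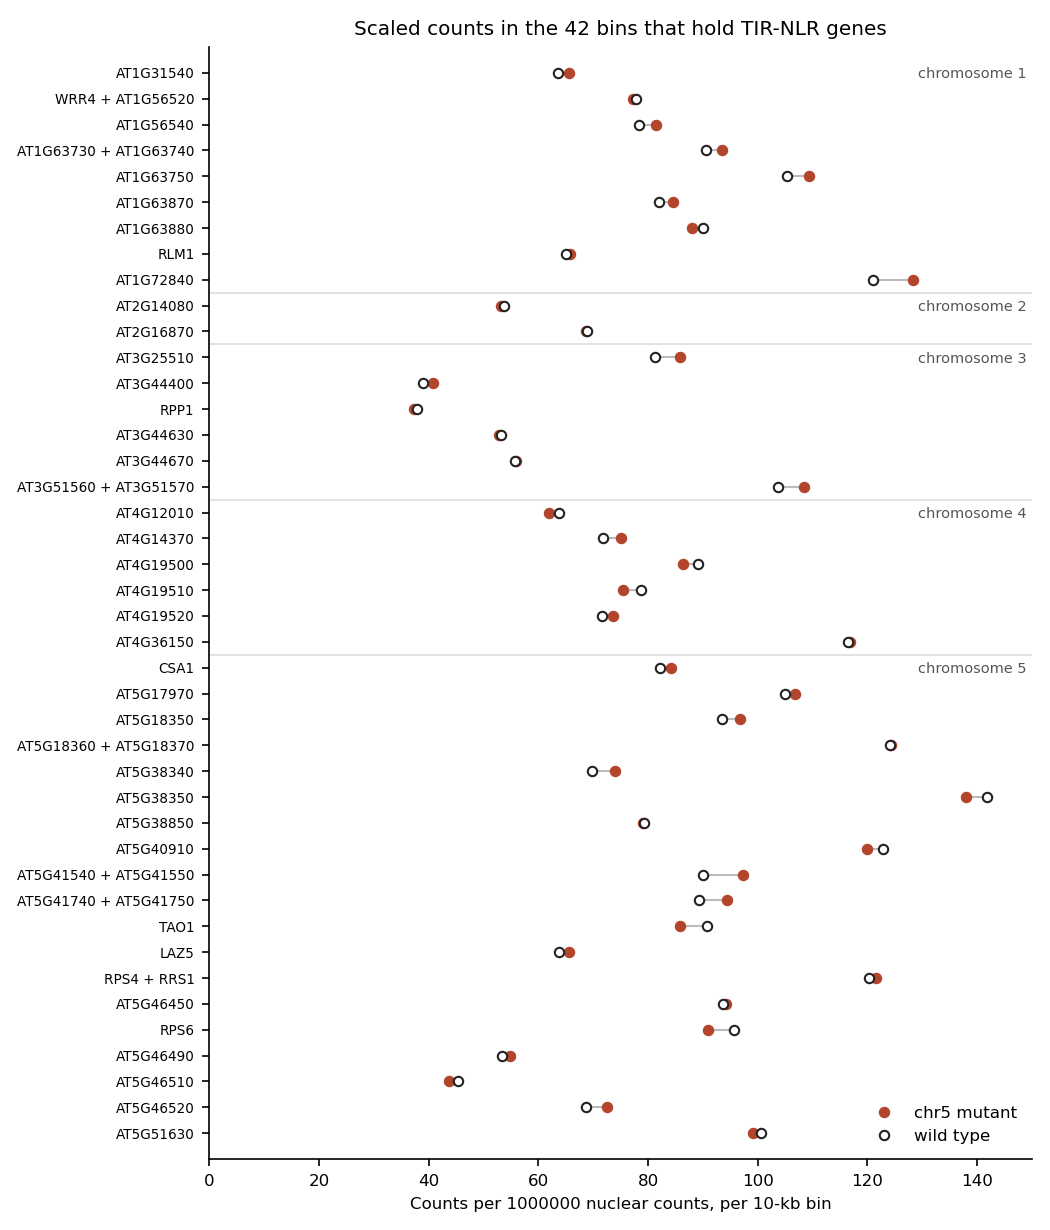
Counts per 1000000 nuclear counts in each of the 42 bins, in genome order from the top, with chr5 as filled and wild type as open points joined by a line. The genotypes lie close together in every bin, while bins differ widely, from 37.9 in the wild type at RPP1 to 141.8 at AT5G38350.

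Counts differed much more between TIR-NLR bins than between genotypes. Both libraries are of digested chromatin, and how reads with several matches were counted is not given. A difference in count between bins is therefore uncertain as a measure of protected DNA. Relative to the median analysed bin of the same library, the 42 bins ran from 0.460 to 1.70 in chr5, with a median of 1.04, and from 0.472 to 1.77 in the wild type, with a median of 1.02. Above the median wild-type count were 22 of the 42, against 50% of all analysed bins. Across the 42 bins the log2 counts of the libraries had a Pearson's r of 0.994, against 0.993 over all analysed bins; bins of a cluster share their sequence neighbourhood and are not independent.

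The RPP1 region of chromosome 3 stood at the low end. RPP1, for resistance to downy mildew, had the lowest count of the family, with 3818 counts in chr5 and 3768 in the wild type at 0.983-fold (0.940 to 1.03). AT3G44400, in the same cluster, had 4184 counts in chr5 and 3878 in the wild type, at 1.047-fold (1.002 to 1.09). The bins of AT3G44630 and AT3G44670, a little further along, were at 0.652 and 0.689 times the median bin in chr5 and at 0.663 and 0.695 times in the wild type. The other bin under 0.6 times the wild-type median was that of AT5G46510, at 0.541 in chr5 and 0.566 in the wild type. Members of a cluster can be close copies, and how reads with several matches were counted is not given in the sources used here, so a low count in such a bin is uncertain as a measure of nucleosomes. The part of read placement in these levels was not tested.

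At the high end stood AT5G38350, AT5G18360 with AT5G18370, and AT5G40910. The bin of AT5G38350 held 14122 counts in chr5 and 14089 in the wild type, at 0.973-fold (0.950 to 0.996), but that gene fills only 15.3% of it and annotated pseudogenes cover 57.2%. The bin of AT5G18360 and AT5G18370, which these genes fill to 87.2%, held 12723 counts in chr5 and 12330 in the wild type, at 1.001-fold (0.977 to 1.03). AT5G40910, a single gene, had 12278 counts in chr5 and 12208 in the wild type, at 0.976-fold (0.952 to 1.001). In these 3 bins the fold was at or just below 1.

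Clustered genes were set against single ones, a gene being clustered where another member's midpoint lies within 100 kb. By this rule 36 genes in 29 bins formed 12 clusters and 13 genes stood alone in 13 bins. In chr5 the median bin was at 1.04 times the median analysed bin for clustered genes and at 0.977 times for single genes; in the wild type it was at 1.02 times for clustered and 0.987 times for single genes. The difference of the median log2 wild-type counts was 0.053. The ranges overlapped almost wholly, from 0.472 to 1.77 in the clustered bins and from 0.670 to 1.53 in the single ones, and both the lowest and the highest bins were clustered. The difference depended on what counts as a cluster: with a limit of 20 kb, which leaves 22 clustered and 20 single bins, it was 0.35.

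The ratio of chr5 to wild type had overlapping ranges in clustered and single genes, with the higher median in the clustered ones. The median log2 ratio was 0.024 over the clustered bins, from -0.075 to 0.11, and -0.0011 over the single bins, from -0.079 to 0.083. Below the genome median were 12 of 29 clustered bins and 8 of 13 single bins, against 50% of all analysed bins. The difference of medians was 0.026, and the SD over bins was 0.048 in the clustered and 0.050 in the single class. Since genes of 1 cluster share their surroundings and bins are not replicates, no test was made of it. Less the median of bins of like mean count (10 classes), the difference was 0.011.

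**Figure D3:**
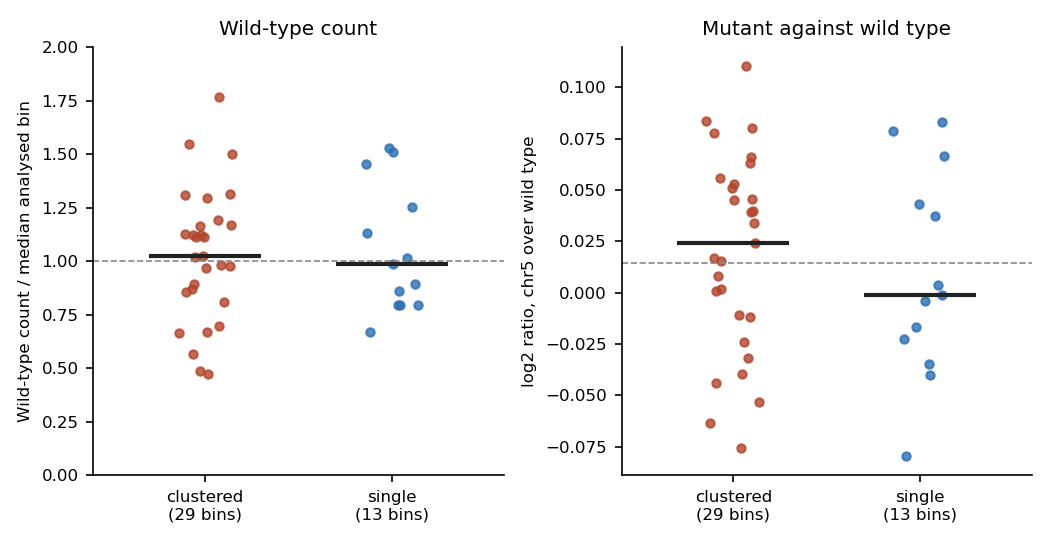
Each point is 1 bin with clustered (29) or single (13) TIR-NLR genes, with the class median as a bar. The left panel gives the wild-type count relative to the median analysed bin and the right panel the log2 ratio of chr5 over wild type; dashed lines mark the level of the median analysed bin, and the classes overlap over most of their range in both panels.

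Bins with more than 1 member had a higher median count than bins with 1, but their range lay inside that of the bins with 1. The 7 bins with 2 members each had a median of 1.201 times the median analysed bin in chr5, from 0.953 to 1.53. In the wild type the median was 1.13 times, from 0.969 to 1.55. Above the median wild-type count were 6 of the 7, against 50% of all analysed bins. The 35 bins with 1 member had medians of 0.977 in chr5, from 0.460 to 1.70, and 0.982 in the wild type, from 0.472 to 1.77. Protein-coding genes covered a median of 83.2% of the bins with 2 members and 72.8% of the bins with 1. The bin of AT3G51560 and AT3G51570 held 11101 counts in chr5 and 10310 in the wild type, at 1.045-fold (1.017 to 1.07). The bin of AT1G63730 and AT1G63740 held 9571 counts in chr5 and 9000 in the wild type, at 1.032-fold (1.003 to 1.06). Of the 7 bins, 5 were above the genome median ratio, which splits all analysed bins at 50%. With so few bins no direction is read from these counts.

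The largest cluster, 6 genes in 5 bins over 138 kb of chromosome 1, was uneven in level, and its folds ran from 0.978 to 1.037. It runs from AT1G63730 to RLM1. Its highest bin was that of AT1G63750, with 11198 counts in chr5 and 10476 in the wild type at 1.037-fold (1.010 to 1.07), and its lowest that of RLM1. AT1G63870 had 8656 counts in chr5 and 8142 in the wild type, at 1.032-fold (1.001 to 1.06). Its close neighbour AT1G63880 had 9023 counts in chr5 and 8951 in the wild type, at 0.978-fold (0.950 to 1.007), the only bin of this cluster with a fold below 1. Summed over the 5 bins, the cluster was at 1.019-fold (1.006 to 1.03).

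The cluster around RPS6 on chromosome 5 had 5 consecutive bins whose ratios went up and down in turn. From AT5G46450 onward the chr5 level was 1.16, 1.12, 0.678, 0.541 and 0.895 times the median bin, and the wild-type level 1.17, 1.19, 0.666, 0.566 and 0.856 times. AT5G46450 had a fold of 1.006 (0.977 to 1.04), RPS6 of 0.949, AT5G46490 of 1.028 (0.990 to 1.07) and AT5G46510 of 0.964. The last bin holds AT5G46520, known as VICTR, which is needed for root growth arrest by a small molecule; it had 7428 counts in chr5 and 6831 in the wild type, a fold of 1.055 (1.021 to 1.09). Summed over the 5 bins the ratios evened out, at 0.998-fold (0.983 to 1.01). In the cluster of AT4G19500, AT4G19510 and AT4G19520 on chromosome 4, the third bin also went the other way from its neighbours, at 1.028-fold (0.995 to 1.06), and the sum was at 0.983 (0.966 to 1.0008). Over the 12 clusters the summed folds ran from 0.983 to 1.068.

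By chromosome, the TIR-NLR bins lay above the arm bins of the same chromosome on 2 and below them on 3. On chromosome 1 the 9 bins had a median log2 ratio of 0.045, against 0.027 over its arm bins, and on chromosome 3 the 6 bins had 0.032, against 0.016. On chromosome 4 the 6 bins had -0.018, against 0.026, and on chromosome 5, which holds 23 of the 49 genes, the 19 bins had 0.015, against 0.022. The 2 bins of chromosome 2, AT2G14080 and AT2G16870, were at -0.016 and -0.0042, against 0.014. These differences were not tested.

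TIR-NLR bins, each chosen because it holds a gene, had a higher median coding coverage than all analysed bins. Protein-coding genes covered a median of 76.6% of the 42 bins, against 60.6% of all analysed bins and 66.5% of arm bins. The comparison lists described further below, chosen by gene in the same way, had higher medians still. These were 83.5% for signalling partners, 81.4% for coiled-coil NLR genes and 81.1% for the SNC1/RPP5 cluster. Wild-type counts had a Spearman's rho with this coverage of 0.42 over the 42 bins and 0.34 over all analysed bins, given as a description of bins that share a library. Over all analysed bins the level did not rise throughout: the 2346 bins with the least coverage, up to 25.1%, had a median of 1.034 times the median bin, the next class 0.710 and the class with the most coverage 1.30. Against bins of like protein-coding coverage, the TIR-NLR bins had a median of 0.890 times the wild-type count, 0.916 for clustered and 0.856 for single genes. Set against the whole genome their level was therefore near the median, and set against bins of like coverage it was lower. The same comparison lists were also lower by this measure. Their medians were 0.910 for signalling partners, 0.926 for coiled-coil NLR genes and 0.765 for the SNC1/RPP5 cluster. A lower level against bins of like coverage was thus not particular to the TIR-NLR bins. Over all analysed bins the ratio of chr5 to wild type falls with the mean count of the bin, with a rho of -0.43. Over the 42 TIR-NLR bins rho was 0.083. All analysed bins include pericentromeric ones and the TIR-NLR bins do not, and no rho over arm bins alone is given, so these values are not like for like.

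The bins around the TIR-NLR bins had somewhat lower counts. Against the median of the analysed bins up to 5 away on either side that hold no member, the median TIR-NLR bin was at 1.17 in chr5 and 1.18 in the wild type, and 27 of the 42 were above their surroundings in the wild type. Coding coverage was lower there as well, at 57.3% and 65.2% in the bins just before and just after. The log2 ratio less that of the surroundings had a median of -0.0070, with 23 of 42 bins below 0. For neither of these counts against the surroundings was the share over all analysed bins computed. Taken by distance, the median log2 ratio was 0.016 in the TIR-NLR bins, against 0.031 in the bins just before and 0.025 in those just after. It was higher than in the TIR-NLR bins at 18 of 20 distances up to 100 kb, within a range from 0.0068 to 0.060. The median over all arm bins, 0.021, was itself above that of the TIR-NLR bins. A surrounding bin can count at several distances, so the 20 medians are not independent. The surrounding bins also have lower counts, and over all analysed bins a lower count goes with a higher ratio. The part of the count in this difference was not tested.

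**Figure D4:**
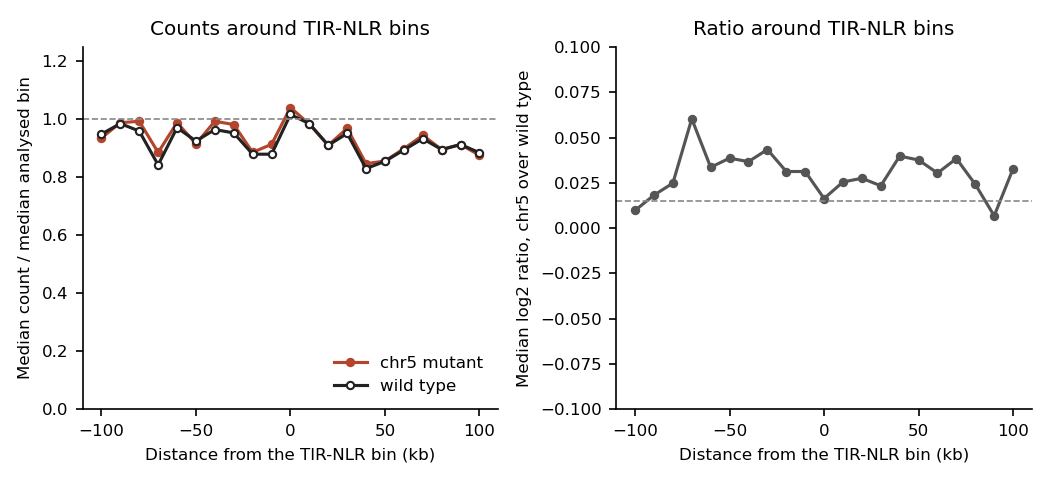
Median over TIR-NLR bins (distance 0) and over bins up to 100 kb away that hold no member (30 to 41 bins at each distance). The left panel gives counts relative to the median analysed bin, chr5 as filled and wild type as open points. They are highest at distance 0, with 1.04 in chr5 and 1.02 in the wild type. The right panel gives the log2 ratio of chr5 over wild type, at 0.016 at distance 0 and from 0.0068 to 0.060 around it. It is higher at 18 of 20 distances, which share bins, and the median over all arm bins is 0.021. Dashed lines mark the median analysed bin.

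Other genes of the same immune pathway were also close to the wild type. The list of 16 partners that act with TIR-NLR proteins fell into 15 bins with a median log2 ratio of 0.0020, 8 of them below the genome median and 0 past 1.1-fold. The highest were SAG101, the partner of EDS1 in cell death signalling, at 1.058-fold (1.026 to 1.09), with 9079 counts in chr5 and 8332 in the wild type, and EDS5, a transporter of the salicylic acid pathway, at 1.036-fold (1.002 to 1.07), with 7257 and 6798. The lowest were the shared bin of AT5G66900 and AT5G66910 at 0.976-fold (0.947 to 1.006), with 8441 counts in chr5 and 8391 in the wild type, and PBS3, an enzyme of salicylic acid synthesis, at 0.985-fold (0.955 to 1.02), with 8044 and 7925. EDS1 itself was at 1.014-fold (0.984 to 1.05).

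Among the other NLR genes, the coiled-coil type had a median ratio near that of the TIR-NLR bins, and the SNC1/RPP5 cluster had a lower one. Of the 40 bins of 44 coiled-coil NLR genes, which carry another N-terminal domain, 36 passed the count filter that all 42 TIR-NLR bins passed, with a median log2 ratio of 0.020, 16 below the genome median and a lowest value of -0.10 at AT5G47260. The 7 bins of the SNC1/RPP5 cluster, most of them TIR-NLR genes that the list leaves out, had a median of -0.017, with 5 below the genome median and a lowest value of -0.13. Both lowest values are below that of the 42 bins, -0.079 at TAO1. The difference between these lists was not tested, since bins are not replicates.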

How the data were processed

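Per the labels' protocols, chromatin of 1 chr5 and 1 wild-type leaf sample was cut with MNase and standard libraries were built. BWA 0.7.5a and bedtools are named in the submitters' processing notes; what each did, the genome build, and the treatment of duplicate or multiply matching reads are not given in the sources at hand. Raw counts were deposited by the authors for 10-kb bins, with no normalization.

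Gene midpoints from RefSeq's TAIR10.1 annotation chose the bins; printed coordinates are the bins' own, 1-based. As no build is named, placement was checked: the correlation of wild-type log2 counts with protein-coding coverage, both less a running median of 21 bins, was 0.39 to 0.46 over chromosomes without a shift and at most 0.10 at shifts of 1 to 4 bins. Counts were scaled to the total over chromosomes 1 to 5. Log2 ratios used a pseudocount of 1; folds used none. Bins under 0.25 times the median scaled count were left out, 181 of 11916, none of them with a TIR-NLR gene. Intervals are exact conditional binomial. Reads are not independent molecules where PCR copies were kept. Surroundings are up to 5 bins either side.

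The members, lists and named genes were chosen with earlier results of these data known. Named genes were the 4 highest and 4 lowest ratios, the 3 highest and 3 lowest wild-type counts, bins with several members, the largest cluster and 13 loci listed by ID; AT4G19500 in the account of unscaled counts, the RPP1 and RPS6 regions in full and EDS1 were taken up after their values were seen. Scripts were tested on simulated counts. The software was Python 3.11.15 with scipy 1.17.1, numpy 2.4.6, matplotlib 3.10.9 and pandas 2.3.3. No sequence was used here.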

Additional observations from a re-analysis of the deposited data

How the results depend on the processing

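The results over the 42 bins were recomputed with the median bin set to 0, totals that include organelles, a pseudocount of 10, a correction for the mean count, no filter, a filter from 0.5 to 4 times the median (40 bins left), all overlapped bins, 1 value per gene and other limits of a cluster. Other backgrounds, bins of like coding coverage and arm bins, were added after the data were seen. The median log2 ratio turned to -0.0048 with the median arm bin set to 0, since the arm bins have a higher median than all bins, and ran from 0.0016 to 0.017 under the other alternatives; leaving out 1 cluster at a time gave 0.0079 to 0.021. In all these 0 bins passed 1.1-fold. Below the background median were 17 to 20 bins when 1 cluster at a time was left out and 22 of 42 against arm bins. The relative wild-type count ran from 0.890 to 1.11. The difference between clustered and single bins kept its sign, from 0.053 to 0.35 for the log2 count and from 0.011 to 0.037 for the log2 ratio; leaving out the cluster from AT1G63730 to RLM1 gave 0.022 and 0.021, and the cluster of RPP1 0.17 and 0.026. No paired analysis was possible because each genotype has 1 library. Counting alone gives the log2 ratio of a TIR-NLR bin an SD of 0.023 at this depth.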

Other observations

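Neighbouring TIR-NLR bins had a larger median difference in ratio than neighbouring bins of the chromosome arms, a comparison taken up after the values were seen. Over the 11 pairs of directly adjacent member bins the log2 ratio differed by a median of 0.083, from 0.0074 to 0.13, against a median of 0.039 over 9820 adjacent pairs in the chromosome arms. The largest step was between AT5G46510 and AT5G46520, and the smallest between the bin of AT1G63730 and AT1G63740 and that of AT1G63750. The wild-type level of the same pairs differed by a median of 0.22 on the log2 scale, against 0.34 over the arm pairs. Several pairs share a bin or a cluster, as in the 5 consecutive bins of the RPS6 cluster, so they are not independent. No test was made. The SNC1/RPP5 cluster, left out of the list, was also uneven. Its consecutive bins from RPP4 to RPP5 had log2 ratios of -0.134, -0.111, -0.038, 0.063, 0.060 and -0.017. The median difference between neighbours was not computed for that cluster.

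Among the coiled-coil NLR genes, the bins of AT1G58807 and AT1G59124 were listed at 0 in both libraries, whereas the lowest TIR-NLR bin held 3818 counts in chr5 and 3768 in the wild type. The bins at 0 were not read as free of nucleosomes.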
